A study of Mus musculus with 6 samples.

Results

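The complement, coagulation and fibrinolysis genes of the liver were examined as 48 named genes, chosen by symbol from the 28450 genes of the deposited FPKM table. FPKM are fragments counted per kilobase of gene, scaled to the sequencing depth of each library. Each of the 48 symbols matched 1 row, and all 48 averaged 1 FPKM or more across the 6 mice, the level needed for a test. The livers came from 3 male Acsm3 knockout mice and 3 male control mice, labelled wild type, all 12 weeks old and on a normal diet. Each mouse gave 1 library of poly(A)-selected RNA. Not given in the sources used here were the strain, the part of Acsm3 that was disrupted and the cells in which it was disrupted. Acsm3 activates medium-chain fatty acids in mitochondria, and the livers were compared to see which transcripts differ in its absence. Acsm3 was at 33.2, 34.4 and 32.2 FPKM in the controls and 0.668, 2.92 and 1.08 FPKM in the knockouts. Acsm3 differed by -3.84 ± 0.29 on the log2 scale (limma, adjusted p = 0.00338), in the direction of the labels.

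Complement is a cascade of plasma proteins that marks and lyses targets. Its classical, lectin and alternative routes meet at C3, and the terminal components then assemble into a membrane pore. Coagulation factors turn each other into active proteases until thrombin makes fibrin from fibrinogen, and plasmin dissolves it again. Hepatocytes make most of these proteins and secrete them into the blood. The chains of C1q and properdin come mainly from macrophages, and factor D is best known as an adipocyte product.

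A gene was called when its adjusted p was under 0.05 in limma on log2(FPKM + 1), fitted and adjusted over the 10996 tested genes. Fold changes are on that scale, knockout minus control, ± the moderated SE. It understates changes of genes with low FPKM. Of the 48 genes, 9 were called higher and 4 lower in the knockouts. That is 18.8% and 8.33% of the members, beside 13.9% and 2.61% of all tested genes (16.5% in either direction). The members are abundant, and among tested genes averaging 10 FPKM or more 14.1% were higher and 6.07% lower, beside 15.9% and 9.09% of the 44 members at that level. Cfd passed the filter only through the knockouts, and 8 of the other 47 members were called higher. The 7 higher complement genes were Cfd, C6, C9, C1qb, Clu, C1s1 and Cfb, and the 1 lower was C8b. On the coagulation and fibrinolysis side Pros1 and Cpb2 were higher, and Klkb1, F7 and Serpind1 were lower. The median log2 fold change was 0.17 over the 26 complement genes and -0.17 over the 22 coagulation and fibrinolysis genes, where that of all tested genes was 0.13. The difference between the 2 groups was not tested. C6, C9, Pros1, Cfd and Klkb1 were called in each of the 17 alternative analyses that held them, including each of the 6 that left out 1 mouse. Of the others, C1qb and C8b lay just inside the threshold (adjusted p = 0.0498 and 0.0481). Without a filter on low values, which put 26129 genes into the test, these 5 genes and C1s1 were the members called. C1qb, C8b and Cpb2 were not called with a pseudocount of 5 or without a variance trend, and C8b was not called after quantile normalization or rescaling to a common sum.

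**Figure D1:**
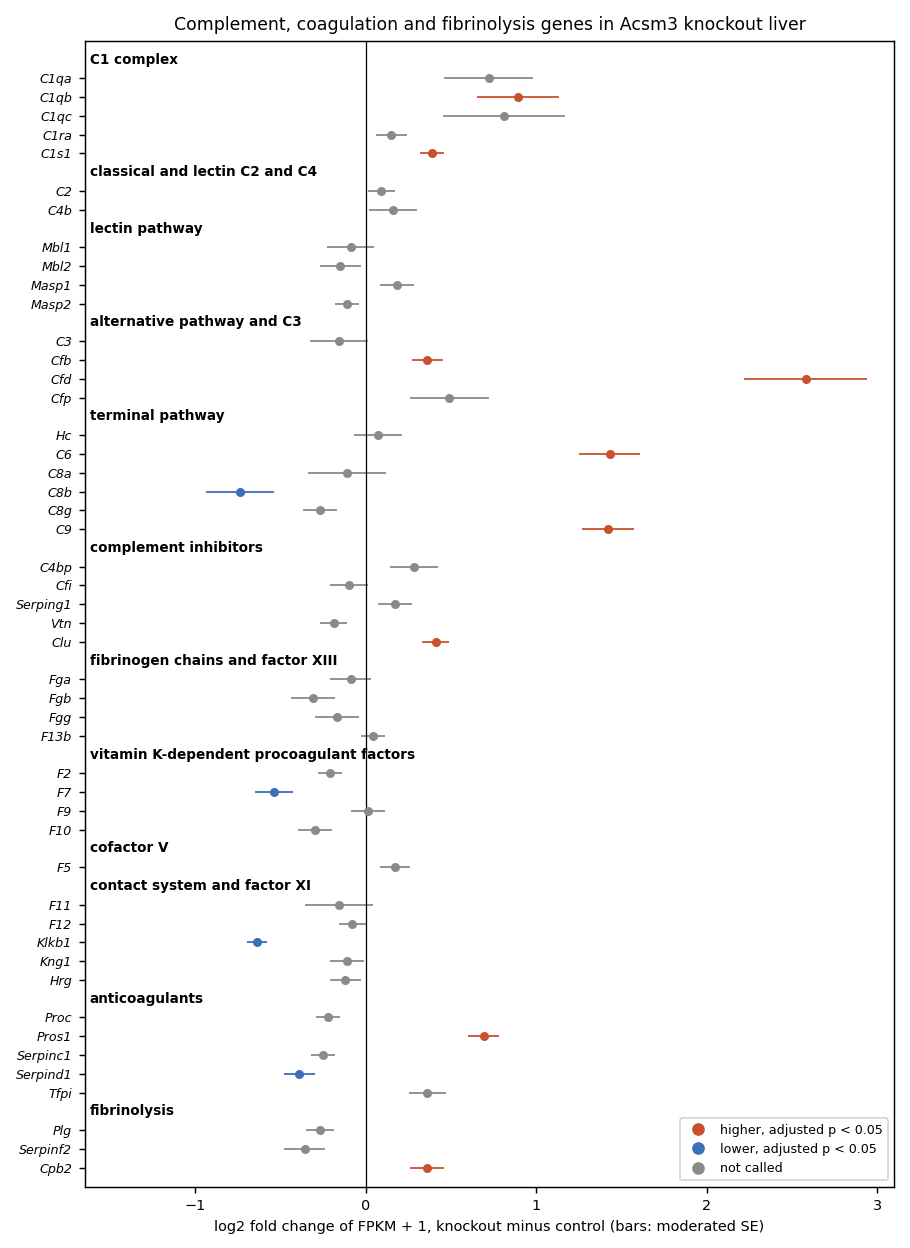
Log2 fold changes (knockout minus control, log2 of FPKM + 1, horizontal axis) of the 48 genes, grouped by role, with bars for the moderated SE. Cfd (2.58), C6 (1.43) and C9 (1.42) lie farthest to the right and C8b (-0.74) and Klkb1 (-0.64) farthest to the left.

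Scaling of the libraries bears on these counts. The median of all tested genes was 0.13 as deposited, 0 after median-ratio rescaling, -0.03 with quantile normalization and 0.22 after rescaling to a common sum. After median-ratio rescaling 4 members were called higher and 11 lower. Of all 10996 tested genes 840 were then higher and 736 lower (14.3% in either direction). The higher members were Cfd, C6, C9 and Pros1. The lower members were C8b, C8g, F2, F7, F10, Klkb1, Proc, Serpinc1, Serpind1, Plg and Serpinf2. The median of the coagulation and fibrinolysis genes stayed below 0 under all 17 alternatives (-0.33 to -0.10), and that of the complement genes went to 0.00 after median-ratio rescaling. The steps between low FPKM values implied 15300000 to 16300000 fragments per library, with which every member but Cfd rested on at least 138.6 fragments in every mouse. Albumin (Alb), the main hepatocyte secretory product, took up 7.63% to 9.69% of each control's summed FPKM and 5.79% to 6.39% of each knockout's. On the first principal component, which held 56.1% of the variance, knockout 3 lay at 10.1, beside 24.6 and 27.7 for knockouts 1 and 2 and -25.9 to -17.3 for the controls. In such bulk samples fewer cells of a type and less RNA per cell cannot be told apart.

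The terminal components held both rises and a fall. C6, which starts the pore with C5b and C7, and C9, which lines it, rose, while the beta chain of C8, which joins between them, fell. Values are listed for mice 1, 2 and 3 of each group in that order. C6 was at 15.7, 15.5 and 17.0 FPKM in the controls and 34.5, 59.2 and 44.7 FPKM in the knockouts. C9 was at 67.4, 78.7 and 53.5 FPKM in the controls and 158, 180.2 and 195 FPKM in the knockouts. For each gene the lowest knockout lay above the highest control, and the group means differed 2.87-fold for C6 and 2.67-fold for C9. The log2 fold changes were 1.43 ± 0.18 (limma, adjusted p = 0.00985) and 1.42 ± 0.15 (adjusted p = 0.00638). Among the knockouts, mouse 1 had the lowest value of both. C8 is built from the products of 3 genes. C8b was at 51.0, 80.1 and 75.9 FPKM in the controls and 36.9, 35.8 and 49.0 FPKM in the knockouts. The highest knockout was below the lowest control by a small margin, with a log2 fold change of -0.74 ± 0.20 (limma, adjusted p = 0.0481). Control 1 was the lowest control, and the C8b call was lost without control 2, control 3, knockout 1 or knockout 2 (adjusted p up to 0.143). C8g was at 162, 145 and 133 FPKM in the controls and 116, 118 and 129.8 FPKM in the knockouts. The C8g groups did not overlap either, at -0.27 ± 0.10 (adjusted p = 0.0992). C8a was at 114, 201 and 128 FPKM in the controls and 107, 145 and 149 FPKM in the knockouts. These C8a values overlapped, control 2 being far above every other mouse (-0.11 ± 0.23, adjusted p = 0.762). Hc, which encodes C5, starts the terminal sequence and was at 138 to 204 FPKM in controls and 165 to 185 FPKM in knockouts (0.07 ± 0.14).

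The 250 bases before the RefSeq start of C6, C9, C8b and C8a (GRCm38.p6, gene strand, 5′ to 3′) are shown because C6 and C9 rose while C8b, beside its partner C8a, fell. C6 and C9 lie 1630.4 kb apart on chromosome 15, and C8a and C8b face each other across 11.1 kb on chromosome 4. Capitals mark matches, on either strand, to GTTAAT (a half-site of HNF1), CAAAGTCCA (HNF4), TTGCNNAA (C/EBP) or TTCNNNGAA (STAT). C9 holds a C/EBP match, C8b an HNF1 match, C8a an HNF1 and a STAT match, and the C6 window holds none of these letters. A match is a run of letters and not a shown binding site.
C6 (chr15:4726960-4727209, plus strand): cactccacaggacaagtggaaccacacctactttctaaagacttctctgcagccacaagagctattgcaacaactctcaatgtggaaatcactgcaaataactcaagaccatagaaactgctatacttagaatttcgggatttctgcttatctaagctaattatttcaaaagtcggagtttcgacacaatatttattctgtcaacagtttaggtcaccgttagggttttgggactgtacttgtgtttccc
C9 (chr15:6445096-6445345, plus strand): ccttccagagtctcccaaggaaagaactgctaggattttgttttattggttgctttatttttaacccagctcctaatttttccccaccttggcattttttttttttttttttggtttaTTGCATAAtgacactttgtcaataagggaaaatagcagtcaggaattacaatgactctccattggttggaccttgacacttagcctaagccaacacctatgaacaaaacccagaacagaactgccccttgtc
C8b (chr4:104766067-104766316, plus strand): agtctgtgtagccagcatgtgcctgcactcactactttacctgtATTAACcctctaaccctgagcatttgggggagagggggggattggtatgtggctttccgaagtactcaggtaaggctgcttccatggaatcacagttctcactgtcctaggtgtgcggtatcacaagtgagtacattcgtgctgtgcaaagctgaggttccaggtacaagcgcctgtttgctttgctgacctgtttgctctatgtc
C8a (chr4:104876399-104876648, minus strand): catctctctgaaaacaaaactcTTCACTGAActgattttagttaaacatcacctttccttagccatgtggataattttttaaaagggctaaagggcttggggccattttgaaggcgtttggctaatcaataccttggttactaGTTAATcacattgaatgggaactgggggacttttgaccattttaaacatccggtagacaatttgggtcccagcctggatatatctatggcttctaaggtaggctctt

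**Figure D2:**
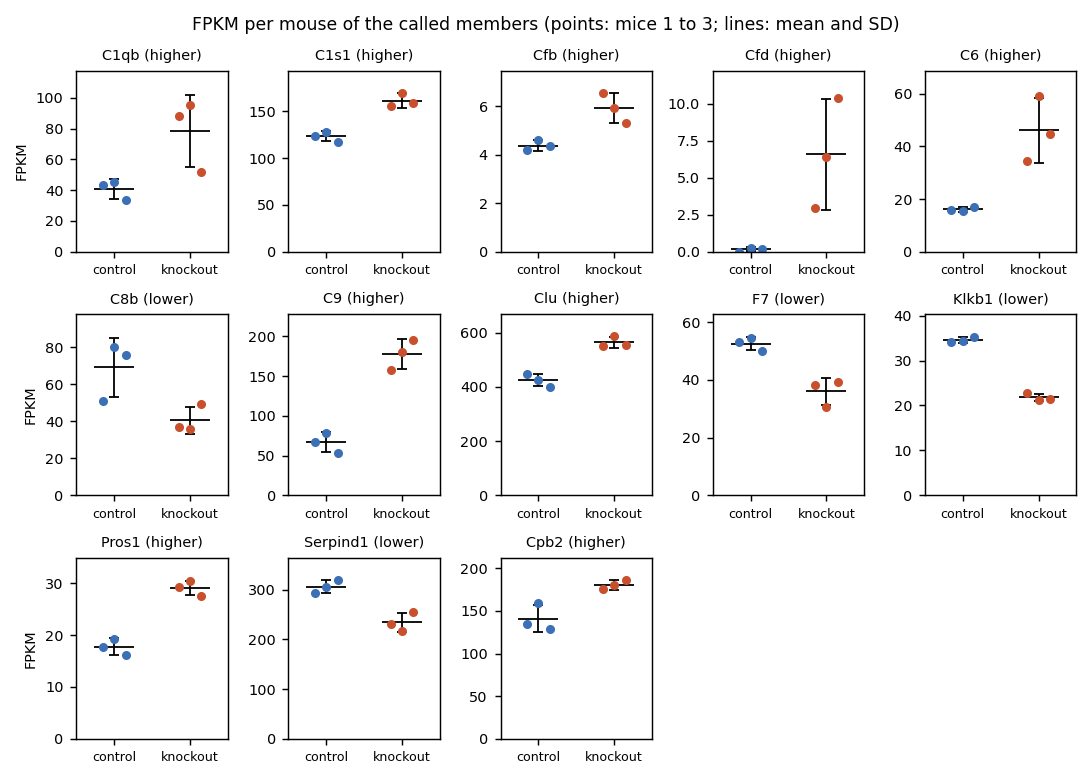
FPKM per mouse (vertical axis, from 0) of the 13 called genes, with the mean and SD of 3 mice in each group. In all 13 panels the 3 knockouts lie wholly above or wholly below the 3 controls; for C8b the gap is small, between 49.0 FPKM in knockout 3 and 51.0 FPKM in control 1.

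Ratios of 2 partner genes within a mouse do not change when a library is multiplied by 1 factor, though quantile normalization, which moves genes unequally, can change them. Per length, C8b was at 0.480 ± 0.0995 of C8a in controls and at 0.307 ± 0.053 in knockouts (SD, n = 3, exact two-sided permutation test p = 0.1). The ratio of C9 to C8a was 0.467 ± 0.110 in controls and 1.34 ± 0.125 in knockouts, and that of C6 to Hc 0.0987 ± 0.0200 and 0.265 ± 0.0717 (SD, n = 3, exact permutation p = 0.1 for each). C8g over C8a overlapped between the groups (exact permutation p = 0.7). With 3 mice against 3 this exact permutation test cannot go below p = 0.1. These were among 16 ratios, picked after the values were seen, whose Benjamini-Hochberg adjusted p were 0.16 or more.

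In the alternative pathway, Cfd stood out. It encodes factor D, the protease that cleaves factor B, and it was near 0 in every control liver. Cfd was at 0, 0.274 and 0.207 FPKM in the controls and 2.92, 6.38 and 10.4 FPKM in the knockouts. At the implied depth these are 0, 4 and 3 fragments in controls and 42, 90 and 154 fragments in knockouts. Over the summed fragments the knockouts were 41.6-fold higher (95% exact interval 19.9 to 104, counting error only). All 3 knockouts were above the controls, and among them knockout 3 was the highest and knockout 1 the lowest. Cfd thus differed by 2.58 ± 0.36 (limma, adjusted p = 0.0122), a value that depends on the pseudocount (1.11 with 5 and 4.71 with 0.1). Cfd reached the test only through the knockouts, its control mean being under 1 FPKM, and it was not tested with a mean of 5 FPKM required. Of the 8 adipocyte markers listed, Cidea and Fabp4 were also called higher, and the other 6 were below the filter. The 8 summed to 2.74 to 8.64 FPKM in controls and 23.1 to 39.7 FPKM in knockouts. Most of the knockout sum was Cidea, at 1.04 to 7.11 FPKM in controls and 19.2 to 35.9 FPKM in knockouts. The defining adipocyte genes Adipoq, Plin1, Lep and Retn were at most 0.0895 FPKM in any mouse, and Slc7a10 was listed at 0 in all.

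Factor B, which joins C3b in the alternative convertase, is encoded by Cfb and rose modestly. Cfb was at 4.18, 4.61 and 4.35 FPKM in the controls and 6.54, 5.95 and 5.30 FPKM in the knockouts. Its groups did not overlap, with 0.36 ± 0.09 (limma, adjusted p = 0.0399). The Cfb call was lost without control 1, 2 or 3 and without knockout 1 or 2 (adjusted p up to 0.123), and after median-ratio or quantile rescaling. Predicted Gm20547 covers 79.5% of the annotated Cfb exon length on the same strand, but it was listed at no more than 0.0164 FPKM. C3, the hub of all routes, was the most abundant of the 48 genes. C3 was at 1677, 2396 and 2206 FPKM in the controls and 2139, 1619.7 and 1823 FPKM in the knockouts. The C3 ranges overlapped, at -0.16 ± 0.17 (adjusted p = 0.525). Properdin (Cfp), which stabilises the convertase, was at 10.9 to 16.9 FPKM in controls. It was at 24.1 and 24.0 FPKM in knockouts 1 and 2 but 14.6 FPKM in knockout 3 (0.49 ± 0.23, adjusted p = 0.185). Of 7 neutrophil markers, which mark another source of properdin, 4 were tested and S100a8, Csf3r and Retnlg were called higher, but these 3 averaged under 1 FPKM in controls and passed the filter only through the knockouts. The 7 listed markers summed to 1.94 to 3.23 FPKM in controls and 4.23 to 11.4 FPKM in knockouts, and Ly6g was listed at 0 in all. S100a9, tested but not called, was at 5.53 FPKM in knockout 1 and overlapped between the groups. The part of neutrophils in the Cfp values was not tested.

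C1 starts the classical pathway. Its recognition part, C1q, has chains encoded by C1qa, C1qb and C1qc, and 1 of these, C1qb, was called. C1qb was at 43.1, 45.5 and 33.3 FPKM in the controls and 87.8, 95.3 and 51.5 FPKM in the knockouts. C1qa was at 40.9, 38.8 and 27.6 FPKM in the controls and 69.6, 73.1 and 39.7 FPKM in the knockouts. C1qc was at 21.7, 21.6 and 11.9 FPKM in the controls and 39.2, 44.2 and 18.5 FPKM in the knockouts. In each chain knockouts 1 and 2 lay well above the controls, whereas knockout 3 was near them and fell within the control range for C1qa and C1qc. Control 3 was likewise the lowest control for each chain. Log2 fold changes were 0.89 ± 0.24 for C1qb (limma, adjusted p = 0.0498), 0.72 ± 0.26 for C1qa (adjusted p = 0.0984) and 0.81 ± 0.36 for C1qc (adjusted p = 0.162). Without knockout 3 all 3 chains and Cfp were called, with log2 fold changes from 0.71 for Cfp to 1.18 for C1qc. The C1qb call was lost without each of the other mice in turn (adjusted p up to 0.141) and after median-ratio or quantile rescaling.

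Macrophage markers varied over the mice beside the C1q chains. Of all tested genes 13.9% were called higher and 2.61% lower. Of 12 Kupffer cell markers 11 were tested, 3 being called higher (Cd5l, Adgre1 and Folr2) and 3 lower (Timd4, Cd163 and Fcna). Their summed level was 199 to 263 FPKM in controls and 244 to 425 FPKM in knockouts, with Xcr1 below the filter. Of 12 markers of recruited or lipid-associated macrophages 11 were tested and called higher. Of these, Gpnmb, Trem2, Itgax, Ccr2, Mmp12 and Cx3cr1 averaged under 1 FPKM in controls and passed the filter through the knockouts, so their count carries no weight, and the other 5 (Cd9, Spp1, Lyz2, Cd68 and Lgals3) did not depend on it. The 12 listed summed to 76.0 to 120 FPKM in controls and 186 to 363 FPKM in knockouts. C1qb stood at 4.93 ± 0.32 times the level of Adgre1, a general macrophage surface marker, in controls and 4.59 ± 0.29 in knockouts (SD, n = 3, exact permutation p = 0.3). Against Cd68 the C1qb ratio was 4.48 ± 0.162 and 3.11 ± 0.353, and against the Kupffer cell gene Clec4f it was 0.895 ± 0.0273 and 1.28 ± 0.0944 (SD, n = 3, exact permutation p = 0.1 each). The part of cell numbers in the C1q values was not tested.

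**Figure D3:**
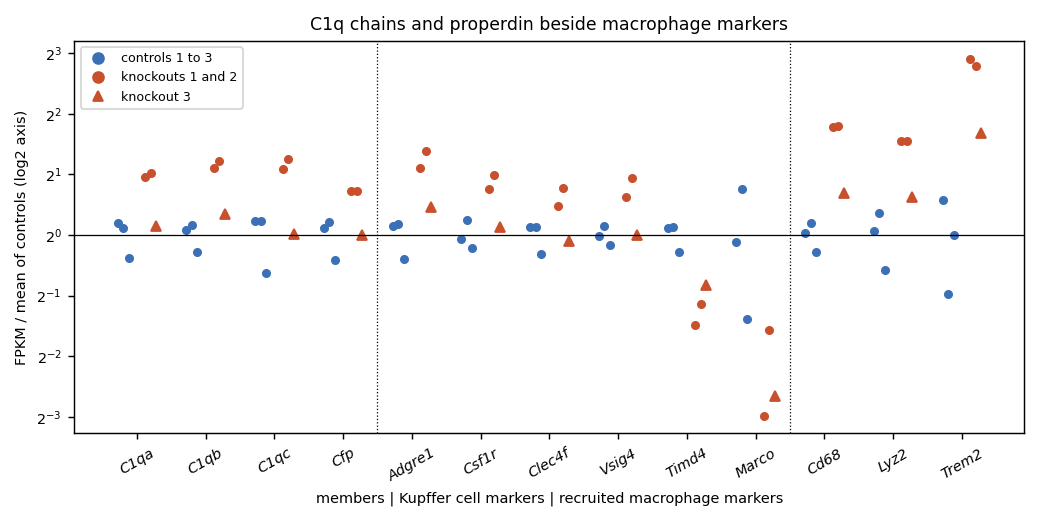
FPKM of the C1q chains, properdin and macrophage markers in each mouse, divided by the mean of the 3 controls (log2 vertical axis; circles and triangles are single mice). In the C1q chains and Cfp, as in Adgre1, Csf1r, Clec4f, Vsig4, Cd68, Lyz2 and Trem2, knockout 3 is the lowest of the knockouts, and Timd4 and Marco lie below the control mean in all 3 knockouts. Control 3 is likewise the lowest control in the C1q chains, Cfp, Adgre1, Csf1r, Clec4f, Vsig4, Cd68 and Lyz2.

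The proteases of C1 are encoded by C1ra and C1s1, which lie 6.9 kb apart on chromosome 6 in opposite directions. C1s1 was at 124, 128 and 117 FPKM in the controls and 156, 170.2 and 159 FPKM in the knockouts. All 3 knockouts were higher, at 0.39 ± 0.07 (limma, adjusted p = 0.0226), a call that ended after median-ratio rescaling and without any 1 mouse other than knockout 3 (adjusted p up to 0.0831 without a mouse). C1ra was at 49.4 to 55.3 FPKM in controls and 52.1 to 61.6 FPKM in knockouts (0.15 ± 0.09, adjusted p = 0.283). C2 and C4b, the substrates of C1s, overlapped between the groups. C2 lay between 7.15 and 8.82 FPKM over all mice (0.09 ± 0.08) and C4b between 215 and 307 FPKM (0.16 ± 0.14). C4b has the close paralog C4a, so the division of fragments between them is uncertain, as it is for C1ra, C1s1 and Kng1 and their paralogs C1rb, C1s2 and Kng2.

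No gene of the lectin route was called, beside 16.5% of all tested genes. Of its 4 members 0 had an unadjusted p under 0.05 in limma, beside 3886 of the 10996 tested genes. This difference was not tested. Mannose-binding lectins, which recognise sugars on microbes, were at 72.2 to 103.5 FPKM (Mbl1) and 203 to 290.3 FPKM (Mbl2) over the 6 mice. Masp1, which encodes a lectin-associated protease, lay between 15.2 and 21.1 FPKM. Masp2 was at 42.9, 48.7 and 44.0 FPKM in the controls and 42.3, 41.2 and 41.7 FPKM in the knockouts. Its groups did not overlap, but the gap was small (-0.11 ± 0.07, adjusted p = 0.321). Masp2 shares 54.9% of its exon length with Tardbp on the other strand. Without known strandedness of the libraries, reads of these 2 genes cannot be told apart over the shared part. Tardbp was listed at 8.41 to 13.8 FPKM.

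Of the complement inhibitors, clusterin (Clu), a secreted chaperone that blocks pore assembly, rose in all 3 knockouts. Clu was at 447, 427 and 401 FPKM in the controls and 552, 588 and 555 FPKM in the knockouts. Clu differed by 0.41 ± 0.08 (limma, adjusted p = 0.0227), and the call ended after median-ratio rescaling and without control 2, control 3, knockout 1 or knockout 2 (adjusted p up to 0.0871 without a mouse). Vitronectin (Vtn), which also binds the forming pore, did not pass. Vtn was at 869, 987 and 930.2 FPKM in the controls and 826, 788 and 823 FPKM in the knockouts. The Vtn groups did not overlap, at -0.19 ± 0.08 (adjusted p = 0.15). The other inhibitors overlapped between the groups. C4bp was at 75.7 to 110.5 FPKM in controls and 104 to 108 FPKM in knockouts (0.28 ± 0.14). Factor I (Cfi), which cleaves C3b and C4b, was at -0.10 ± 0.11, and the C1 inhibitor Serping1 was at 0.17 ± 0.10.

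The fibrinogen chains were among the most abundant of the 48 genes, and no chain was called. Fga was at 1054, 1381 and 1248 FPKM in the controls and 1163, 1065 and 1220.3 FPKM in the knockouts. Fgb was at 819, 1092 and 959 FPKM in the controls and 786, 689 and 830.0 FPKM in the knockouts. Fgg was at 1078, 1433 and 1236 FPKM in the controls and 1106, 998 and 1205 FPKM in the knockouts. Control 2 was highest for each chain and knockout 2 the lowest knockout, and the ranges of the groups overlapped. The log2 fold changes were -0.09 ± 0.12, -0.31 ± 0.13 and -0.17 ± 0.13 for Fga, Fgb and Fgg (limma, adjusted p = 0.642, 0.142 and 0.381). Within each mouse the chains kept close proportions. Fgb stood at 0.779 ± 0.0113 of Fga in controls and 0.668 ± 0.0179 in knockouts, and Fgg at 1.02 ± 0.0242 and 0.958 ± 0.0263 of Fga (SD, n = 3, exact permutation p = 0.1 for both, the smallest possible). The knockout ratios thus lay below all control ratios, although the levels overlapped. For Fgg over Fga the gap was small, between 0.988 in knockout 3 and 0.991 in control 3. F13b, the carrier subunit of the fibrin-crosslinking factor XIII, was at 80.6 to 81.1 FPKM in controls and 79.5 to 87.2 FPKM in knockouts (0.04 ± 0.07).

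Fgg, Fga and Fgb sit side by side on chromosome 3, with gaps of 11026 and 6513 bp. The windows before Fga and Fgb are shown because, of the 37 genes with a window, they were the 2 that held an HNF1, a C/EBP and a STAT match together, with capitals as above. The Fgg window held none of the 4 motifs.
Fga (chr3:83025903-83026152, plus strand): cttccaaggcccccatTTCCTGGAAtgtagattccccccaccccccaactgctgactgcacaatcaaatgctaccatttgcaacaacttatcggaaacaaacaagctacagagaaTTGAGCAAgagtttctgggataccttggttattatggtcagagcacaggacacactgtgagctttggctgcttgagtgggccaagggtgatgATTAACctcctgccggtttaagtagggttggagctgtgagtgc
Fgb (chr3:83049864-83050113, minus strand): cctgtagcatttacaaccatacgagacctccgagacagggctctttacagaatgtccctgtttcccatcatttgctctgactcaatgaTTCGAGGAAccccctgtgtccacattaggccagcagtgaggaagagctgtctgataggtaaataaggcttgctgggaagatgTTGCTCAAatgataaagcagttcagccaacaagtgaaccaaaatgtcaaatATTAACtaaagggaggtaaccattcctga

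Among the vitamin K-dependent procoagulant factors, F7 fell. Factor VII starts coagulation with tissue factor. F7 was at 53.2, 54.5 and 50.1 FPKM in the controls and 38.1, 30.5 and 39.4 FPKM in the knockouts. Knockout 2 was the lowest, and F7 differed by -0.54 ± 0.11 on the log2 scale (limma, adjusted p = 0.025). The F7 call was lost without any 1 of the mice other than knockout 3 (adjusted p up to 0.0847). Its neighbour F10, 1.5 kb downstream on chromosome 8, encodes the protease that makes thrombin. F10 was at 111, 133 and 114 FPKM in the controls and 99.0, 89.6 and 100.4 FPKM in the knockouts. The F10 groups did not overlap, at -0.30 ± 0.10 (adjusted p = 0.0712). Prothrombin (F2) was likewise separated without passing. F2 was at 371, 364 and 370.0 FPKM in the controls and 322, 306 and 327 FPKM in the knockouts. Its log2 fold change was -0.21 ± 0.07 (adjusted p = 0.0782), and both F2 and F10 were called after median-ratio rescaling. F9 was at 114 to 135 FPKM in controls and 113 to 133 FPKM in knockouts (0.01 ± 0.10). The cofactor F5 was at 104 to 125 FPKM in controls and 122 to 136 FPKM in knockouts (0.17 ± 0.09, adjusted p = 0.236).

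In the contact system Klkb1 fell, with the lowest p-value of the 48 genes. It encodes plasma prekallikrein, which is activated with factor XII and releases bradykinin from kininogen. Klkb1 was at 34.1, 34.3 and 35.3 FPKM in the controls and 22.7, 21.3 and 21.6 FPKM in the knockouts. The controls lay within 1.18 FPKM of each other and the knockouts within 1.38 FPKM, and the groups were far apart. Klkb1 differed by -0.64 ± 0.06 (limma, adjusted p = 0.00566). Klkb1 and F11, which encodes the related protease factor XI, are adjacent on chromosome 8, 4.7 kb apart. F11 was at 11.8 to 19.3 FPKM in controls and 10.5 to 14.8 FPKM in knockouts (-0.16 ± 0.20, adjusted p = 0.603). The ratio of Klkb1 to F11 overlapped (2.51 ± 0.646 and 1.76 ± 0.307, SD, n = 3, exact permutation p = 0.3). The other contact genes were not called. F12 was at 225 to 251 FPKM in controls and 219 to 238 FPKM in knockouts, the kininogen Kng1 at 493 to 605 and 506 to 525 FPKM, and the histidine-rich glycoprotein Hrg at 589 to 648 and 533 to 604 FPKM.

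The window before Klkb1, shown because this fall was called under every alternative, holds 1 C/EBP match, as does that of F11. Predicted Gm45753 covers 43.2% of the Klkb1 exon length on the same strand and was listed at no more than 0.0466 FPKM.
Klkb1 (chr8:45294836-45295085, minus strand): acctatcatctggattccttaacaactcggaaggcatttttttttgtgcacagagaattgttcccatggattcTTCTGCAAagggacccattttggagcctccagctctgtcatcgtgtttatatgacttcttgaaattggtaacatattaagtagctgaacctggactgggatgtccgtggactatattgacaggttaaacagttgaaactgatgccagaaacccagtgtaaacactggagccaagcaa

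Of the anticoagulants, protein S (Pros1), the cofactor of activated protein C, rose. Pros1 was at 17.8, 19.3 and 16.1 FPKM in the controls and 29.2, 30.4 and 27.6 FPKM in the knockouts. The lowest knockout was well above the highest control, with a log2 fold change of 0.69 ± 0.09 (limma, adjusted p = 0.00974) and means that differed 1.64-fold. Protein C itself (Proc) did not pass. Proc was at 277, 255 and 263 FPKM in the controls and 229, 229 and 224 FPKM in the knockouts. Its groups did not overlap (-0.22 ± 0.07, adjusted p = 0.0719). The ratio of Pros1 to Proc was 0.0671 ± 0.00768 in controls and 0.128 ± 0.00451 in knockouts (SD, n = 3, exact permutation p = 0.1). The window before Pros1, shown because the gene was called under every alternative, is rich in G and C (64.4%) and holds 1 STAT match.
Pros1 (chr16:62854057-62854306, plus strand): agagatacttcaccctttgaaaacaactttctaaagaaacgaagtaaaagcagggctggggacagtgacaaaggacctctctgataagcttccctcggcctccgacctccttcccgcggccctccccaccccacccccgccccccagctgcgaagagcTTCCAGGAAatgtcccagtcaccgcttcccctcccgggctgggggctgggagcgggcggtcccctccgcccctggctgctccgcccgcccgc

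Heparin cofactor II (Serpind1), a thrombin inhibitor, fell. Serpind1 was at 294, 305 and 320.0 FPKM in the controls and 231, 217 and 254 FPKM in the knockouts. All 3 knockouts were below the controls, at -0.39 ± 0.09 (limma, adjusted p = 0.031), and the call was lost without any 1 mouse other than knockout 3 (adjusted p up to 0.104). Antithrombin (Serpinc1), the main inhibitor of thrombin and factor Xa, was also separated but not called. Serpinc1 was at 200.1, 191 and 199 FPKM in the controls and 172, 154 and 169 FPKM in the knockouts. It was at -0.25 ± 0.07 (adjusted p = 0.0641). Tfpi, the inhibitor of the tissue factor pathway, is made largely by endothelium and was low. Tfpi was at 1.56, 1.68 and 1.63 FPKM in the controls and 2.84, 2.17 and 2.13 FPKM in the knockouts. The Tfpi groups did not overlap (0.36 ± 0.11, adjusted p = 0.0629), and it was called after rescaling to a common sum and with voom on the implied fragments. Of 10 sinusoidal endothelial markers 3 were called higher (Stab1, Stab2 and Pecam1) and 0 lower, beside 13.9% and 2.61% of all tested genes. The 10 markers summed to 85.2 to 101 FPKM in controls and 114 to 147 FPKM in knockouts. Their part in the Tfpi values was not tested.

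In fibrinolysis, Cpb2 rose, and Plg and Serpinf2 did not pass. Cpb2 encodes the carboxypeptidase that trims plasminogen-binding sites from fibrin. Cpb2 was at 134, 159 and 129 FPKM in the controls and 176, 180.0 and 187 FPKM in the knockouts. The groups did not overlap, at 0.36 ± 0.10 (limma, adjusted p = 0.0459), but the Cpb2 call was lost without any 1 of the 6 mice (adjusted p up to 0.128) and after median-ratio or quantile rescaling. Plg was at 775, 855 and 809.7 FPKM in the controls and 697, 645 and 675 FPKM in the knockouts. Plg, the source of plasmin, was at -0.27 ± 0.08 (adjusted p = 0.06). Serpinf2 was at 233, 278 and 249.8 FPKM in the controls and 224, 172 and 198 FPKM in the knockouts. For Serpinf2, the plasmin inhibitor, the margin between the groups was narrow (-0.36 ± 0.12, adjusted p = 0.0832). Both were called lower after median-ratio rescaling.

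Over all members, the 3 knockouts lay wholly above the 3 controls in 10 genes and wholly below in 13, or 20.8% and 27.1%, beside 33.9% and 7.91% of all tested genes (41.8% in either direction). Among the 3413 tested genes averaging 10 FPKM or more the shares were 28.7% and 16.5%. In the 22 coagulation and fibrinolysis genes 9 lay wholly lower and 3 wholly higher. The mice also differed within their groups. Control 2 had the highest value of the 3 controls in 33 of 48 genes, among them C3, C4b, Hc, C8a, C4bp and all fibrinogen chains. Without control 2, C4bp was called higher (0.45), and the median of all members moved from -0.08 to 0.06. The 48 genes together made up 3.09% to 3.80% of a control library's summed FPKM and 3.27% to 3.52% of a knockout's, so that their total share overlapped.

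**Figure D4:**
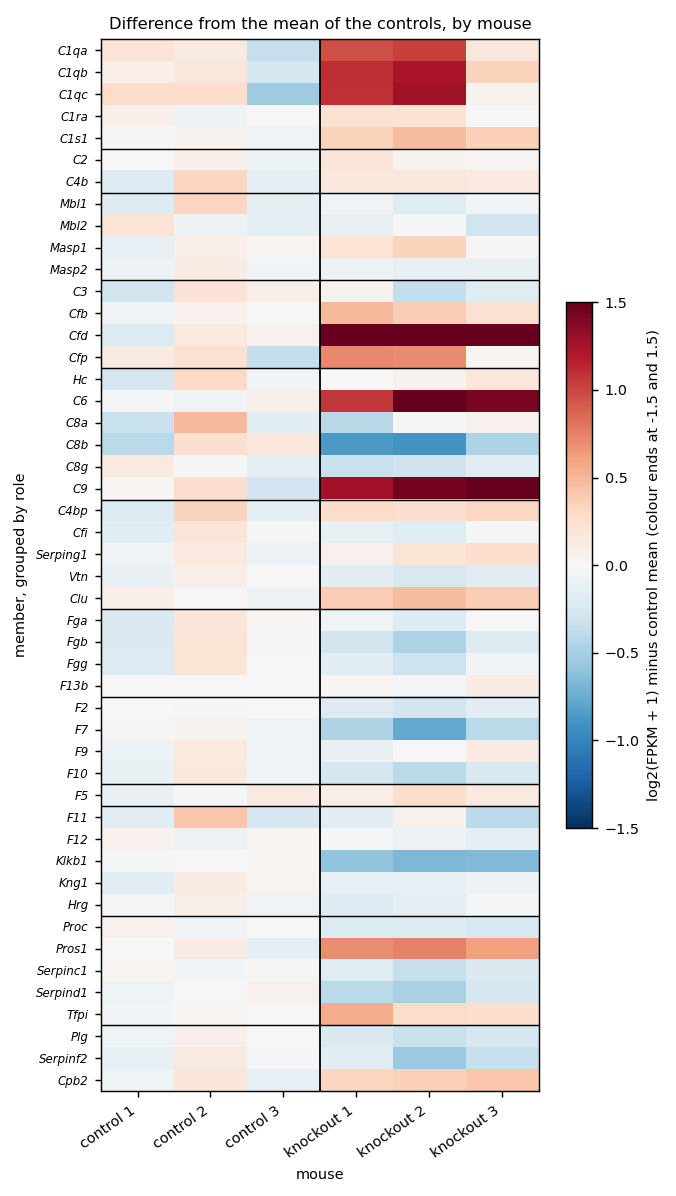
Difference of log2(FPKM + 1) from the mean of the controls for the 48 genes (rows, grouped by role) in each of the 6 mice (columns), with colours ending at -1.5 and 1.5. Control 2 is the reddest control, C6, C9, Cfd and Pros1 are red in all 3 knockouts, and the C1q chains and Cfp are pale in knockout 3.

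**Figure D5:**
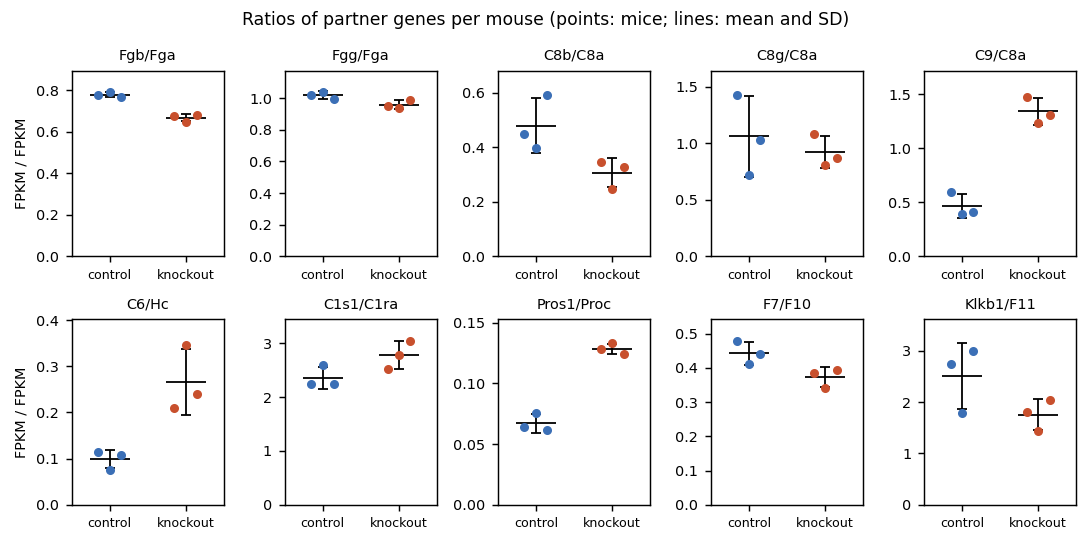
Ratios of FPKM between partner genes in each mouse (vertical axes from 0), with the mean and SD of 3 mice. C9/C8a, C6/Hc and Pros1/Proc lie higher in all 3 knockouts, Fgb/Fga, Fgg/Fga, C8b/C8a and F7/F10 lie lower, and C8g/C8a, C1s1/C1ra and Klkb1/F11 overlap. The gap for Fgg/Fga is small, between 0.988 in knockout 3 and 0.991 in control 3.

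The motifs were also counted over all members. A promoter window was found for 37 of the 48 genes, the others being C1qa, C2, C4b, Cfb, Cfi, Clu, Kng1, Masp1, Plg, Proc and Serping1. GTTAAT was in 10 of the 37 windows (27.0%) and in 6.43% of all 32851 windows of 250 bases. TTGCNNAA was in 9 (24.3%, all windows 9.56%), TTCNNNGAA in 6 (16.2%, all windows 7.02%) and CAAAGTCCA in 0 (all windows 0.384%). Of the 13 called genes, GTTAAT was found in that of C8b, TTGCNNAA in those of C1s1, C9 and Klkb1, and TTCNNNGAA in that of Pros1. Matches were counted on both strands, and none overlapped a match to another motif in these windows.

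Other genes of the same systems were taken from lists. Of 23 tested further complement genes 7 were called higher and 4 lower, beside 13.9% and 2.61% of all tested genes. Itgax, C5ar1 and C5ar2 were among the 7 but averaged under 1 FPKM in controls and passed the filter through the knockouts. Of the 19 genes at 1 FPKM or more in controls 4 were higher and 4 lower. These 4 higher genes included the complement receptor chain Itgb2 (1.22 ± 0.27), the endothelial and myeloid receptor Cd93 (1.06 ± 0.11), and C3ar1 (0.88 ± 0.22), the receptor for C3a. The complement receptor chain Itgax, which is not among these 4, was at 1.49 ± 0.22. The lower ones were the Kupffer cell lectin Fcna (-0.81 ± 0.14), C1rl (-0.40 ± 0.07) and both subunits of the carboxypeptidase that inactivates anaphylatoxins, Cpn1 (-0.32 ± 0.08) and Cpn2 (-0.30 ± 0.07). Of 29 tested further coagulation and fibrinolysis genes 8 were higher and 1 lower, beside the same shares of all tested genes. Anxa2 (2.45 ± 0.23) and S100a10 (1.34 ± 0.15) encode a cell surface receptor for plasminogen, and Plau (1.16 ± 0.23) a plasminogen activator. The vitamin K-dependent Proz (-0.32 ± 0.09) was the 1 that fell. Beside these rises, the 5 recruited macrophage markers that did not depend on the filter were higher in the same mice. Of these 5, Spp1 was also listed as a cholangiocyte marker. Of the Kupffer cell markers 3 were called higher and 3 lower. Of 10 stellate cell or fibroblast markers, 8 averaged 1 FPKM or more in controls, and 6 of these 8 were called higher and 0 lower. The 10 summed to 56.4 to 64.4 FPKM in controls and 107 to 138 FPKM in knockouts. The part of macrophages, stellate cells or fibroblasts in these rises was not tested.

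Beside the counts given here, 13.9% of all tested genes were called higher and 2.61% lower. Among 19 tested regulators of hepatocyte and acute-phase genes, Hnf4a (0.70 ± 0.12) and the IL-6 family receptor chain Il6st (0.45 ± 0.07) were called higher and 0 lower. Hnf4a averaged 139 ± 16.0 FPKM in the controls and 228 ± 27.5 FPKM in the knockouts (SD, n = 3, limma adjusted p = 0.0194). Of 18 positive acute-phase genes 5 were higher and 0 lower, the largest being Orm3 (3.37 ± 0.32), Orm2 (1.90 ± 0.35), Steap4 (1.35 ± 0.18) and Saa3 (0.83 ± 0.16). Orm2 and Orm3 are close paralogs, so the division of fragments between them is uncertain. Of 12 hepatocyte markers Trf was higher and Alb, Ttr and Pck1 were lower, and the 12 summed to 51666 to 60916 FPKM in controls and 39046 to 43140.1 FPKM in knockouts. Most of that sum was Alb, and without it the other 11 summed to 21514 to 23547 FPKM in controls and 17943 to 19111 FPKM in knockouts. The other 8 markers were not called, and the part of these markers in the lower coagulation genes was not tested.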

How the data were processed

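Liver mRNA of 6 mice, 3 per group, was sequenced after poly(A) capture, per the labels' protocols. The submitters' processing notes name HISAT2 2.0.4, Bowtie2 2.2.6, StringTie 1.3.0 and GRCm38, with no roles. The authors deposited 1 table of FPKM values per mouse, with no further scaling stated, and 0 of its columns were left unused. Not given in the sources used here were strandedness and how fragments of paralogs were shared.

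From the deposited FPKM, log2(FPKM + 1) was fitted with limma 3.58.1 (eBayes with a trend, R 4.3.3) for the 10996 genes averaging 1 FPKM or more, knockout against control; p-values were adjusted by Benjamini-Hochberg and called under 0.05. Nothing in the labels beyond separate mice describes the replicates, so p-values measure the spread between these mice. Low FPKM, multiplied by GENCODE M21 exon length, gave 99.6% to 99.73% whole fragments within 0.1 (values under 20 fragments), from which each library's total was implied. Intervals cover counting error only. Alternatives were other pseudocounts, filters, scalings and variance options, a replicate block, each mouse left out in turn and, chosen after seeing the data, voom on implied fragments. The script was tested on simulated data.

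All members were described. Values in every mouse were given for called or non-overlapping members, for C3, C8a, the other C1q chains and the fibrinogen chains. Of the other lists, the called genes with the largest change were named, up to 4 per direction; 1 such gene is not reported here. The members and lists were chosen with earlier results of these data known, and the partner ratios after their values were seen. Promoter windows are from RefSeq (GRCm38.p6), read with Python 3.11.15, and gene coordinates are those of the table.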

Additional observations from a re-analysis of the deposited data

How the results depend on the processing

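The number of called genes (1819) was 650 without a filter, 1108 with a mean of at least 5 FPKM and 279 to 2271 with 1 mouse left out. Members called higher (9) numbered 5 without a filter, 4 after median-ratio rescaling and 4 to 11 with 1 mouse left out, and members called lower (4) numbered 1, 11 and 1 to 4. The median of the members (-0.08) was -0.25 after median-ratio rescaling, 0.02 with quantile normalization, -0.01 with libraries set to 1 common sum and -0.07 to 0.06 with 1 mouse left out. The median of the complement genes (0.17) was 0.00 after median-ratio rescaling. That of the coagulation and fibrinolysis genes (-0.17) was -0.33, -0.13 and -0.10 under these 3 scalings and -0.20 to -0.10 with 1 mouse left out. The split of all called genes was 1532 higher and 287 lower as deposited, 840 and 736 after median-ratio rescaling, 752 and 603 with quantile normalization, and 2451 and 237 when libraries were rescaled to 1 common sum.

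The members that changed sign had adjusted p of 0.408 or more there. After median-ratio rescaling C1ra was at -0.01, C2 at -0.06, C4b at 0.00, Hc at -0.09, F13b at -0.12 and F9 at -0.15. With quantile normalization C2 was at -0.06, C3 at 0.11, Fga at 0.12 and Hrg at 0.01, and after rescaling to a common sum F12 was at 0.00. With 1 mouse left out, Mbl1 ranged from -0.19 to 0.07, C8a from -0.28 to 0.13, Fga from -0.19 to 0.00 and F11 from -0.29 to 0.05, the upper ends being without control 2. Hc ranged from -0.05 (without control 1) to 0.22 and F9 from -0.05 (without knockout 3) to 0.08. The causes were not tested.

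The labels give same-numbered mice only a number in common. The correlations of their deviations were 0.111, 0.092 and 0.187, and 6 of 6 mice correlated best with their own number. Whether same-numbered mice share more, such as a batch, was not tested. With the replicate block 2018 genes were called, 10 members higher and 4 lower, C1qa, C1qc and Cfp being gained and Cfb and Cpb2 lost. At the implied depth 1 FPKM of a 2 kb gene rests on 30.6 to 32.6 fragments, so depth limits Cfd in the controls more than any other member.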

Other observations

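The member genes that were highest in control 2 were not the only liver secretory genes to be high in that mouse. Of the acute-phase genes, Saa1 was at 65.5 FPKM in control 2 and at 17.9 and 5.93 FPKM in controls 1 and 3. Lcn2 was at 46.8 FPKM beside 10.7 and 5.34 FPKM, and Orm1 at 514 FPKM beside 264 and 229 FPKM. Apcs, which encodes serum amyloid P, was at 215 FPKM beside 85.1 and 128 FPKM, and Itih4 at 967 FPKM beside 566 and 640.1 FPKM. The fibrinogen-like hepatokine Fgl1 was at 196 FPKM beside 62.2 and 85.1 FPKM. In the knockouts Saa1 was at 32.8 to 48.0 FPKM, Lcn2 at 37.9 to 67.2 FPKM and Fgl1 at 41.9 to 58.6 FPKM. None of the 6 genes was called between the groups. They were chosen after their values were seen, and the values are given with no explanation.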
